A study of Mus musculus with 10 samples.

Results

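The ERBB system comprises receptor tyrosine kinases of the cell surface and the growth factors that bind them, and 10 of its genes were examined among the 21792 genes with deposited values. These were 6 ligand genes, Hbegf, Areg, Ereg, Tgfa, Btc and Nrg1, and 4 receptor genes, Egfr, Erbb2, Erbb3 and Erbb4, listed by name, with no limit on their values in the rule. All 10 were found by matching Ensembl gene identifiers to mouse symbols. The samples were RNA libraries of the renal cortex of 10 wild-type (WT) mice, 1 library per mouse, taken 28 days after treatment. The 4 sham mice received PBS, and the 6 mice with aristolochic acid nephropathy (AAN) were injected once with aristolochic acid into the peritoneum, at 5 mg/kg in PBS. Aristolochic acid is a plant toxin taken up by proximal tubule cells, and the injection was the difference between the groups given in the labels. For this model the methods of the study name male C57BL/6 animals of 8 weeks.

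ERBB ligands are made as precursors in the cell membrane, and proteases of the ADAM family cut them free. Amphiregulin and TGF-alpha bind EGFR, HB-EGF, betacellulin and epiregulin bind EGFR and ERBB4, and neuregulins bind ERBB3 and ERBB4. ERBB2 has no known ligand of its own and signals with a partner, and ERBB3 has little kinase activity and does the same. In the healthy kidney, EGF is made mainly by the thick ascending limb and the distal convoluted tubule, and EGFR signaling in tubule cells takes part in repair and in fibrosis after injury.

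The upstream sequences of 4 ligand genes are shown because their transcripts behaved differently in AAN: Areg and Tgfa were higher, Btc, which lies close to Areg, was not called, and Egf was lower. Areg (chr5:91139599-91148432), Ereg (chr5:91074622-91093646), Epgn (chr5:91027464-91035215) and Btc (chr5:91357261-91402994) lie near each other on chromosome 5. Each sequence gives the 250 bases before the RefSeq transcription start on GRCm38.p6, 5′ to 3′ on the strand of the gene. The positions are chr5:91139349-91139598 on the plus strand for Areg, chr5:91402995-91403244 on the minus strand for Btc, chr6:86194972-86195221 on the plus strand for Tgfa and chr3:129755323-129755572 on the minus strand for Egf. Capitals mark matches to any of 5 motifs, searched on both strands over 300 bases (the 250 shown and the 50 after the start).
Areg: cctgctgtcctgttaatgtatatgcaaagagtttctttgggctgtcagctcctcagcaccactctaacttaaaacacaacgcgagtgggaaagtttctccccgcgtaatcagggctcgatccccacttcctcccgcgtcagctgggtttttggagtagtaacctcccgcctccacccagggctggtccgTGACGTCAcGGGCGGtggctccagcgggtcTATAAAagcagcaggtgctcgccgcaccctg
Btc: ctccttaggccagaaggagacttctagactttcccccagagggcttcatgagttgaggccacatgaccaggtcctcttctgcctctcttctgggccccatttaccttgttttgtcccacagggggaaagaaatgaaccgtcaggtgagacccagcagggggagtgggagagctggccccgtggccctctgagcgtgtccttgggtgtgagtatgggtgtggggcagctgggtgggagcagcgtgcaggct
Tgfa: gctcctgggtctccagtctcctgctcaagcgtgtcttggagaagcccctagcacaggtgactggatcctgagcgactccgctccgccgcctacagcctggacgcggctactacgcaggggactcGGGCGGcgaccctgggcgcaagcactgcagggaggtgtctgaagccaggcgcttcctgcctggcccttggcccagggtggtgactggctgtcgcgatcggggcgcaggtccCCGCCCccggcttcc
Egf: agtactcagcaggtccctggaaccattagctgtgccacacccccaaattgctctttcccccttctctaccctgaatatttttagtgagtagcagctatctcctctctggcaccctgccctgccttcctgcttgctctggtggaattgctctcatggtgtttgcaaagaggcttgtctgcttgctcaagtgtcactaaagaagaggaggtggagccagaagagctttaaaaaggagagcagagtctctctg

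The motifs were the AP-1 site TGANTCA, the cyclic AMP response element TGACGTCA, the TEAD site GGAATG, the SP1 site GGGCGG and the TATA box TATAAA, of which none contains another. The Areg window held the cyclic AMP response element from 61 to 54 bases before the start, followed by an SP1 match and, from 31 to 26 bases before the start, a TATA match. A further SP1 match, on the other strand, lay 37 to 42 bases after the start, beyond the bases shown. The cyclic AMP response element occurred in 1.79% of 32851 RefSeq promoter windows of this length, the TATA match in 13.6% and the SP1 match in 35.7%. The Tgfa window held 2 SP1 matches, and no motif was matched in the Btc or Egf windows. Matches to the AP-1 site, found in 7.81% of all windows, and to the TEAD site, found in 14.7%, were absent from these 4 windows. A match is a run of letters and not a measured binding site.

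The depth recovered from the steps between low FPKM values (fragments scaled to transcript length and to mapped fragments) was 15.8 to 17.4 M fragments (M, mega) in sham libraries and 13.3 to 16.5 M in AAN libraries. Genes with a value above 0 numbered 16690 to 17639 in sham and 19158 to 19636 in AAN libraries. Mitochondrial transcripts held 39.5% to 61.4% of summed FPKM in the sham group and 21.4% to 55.0% in the AAN group. A gene was called when limma, fitted on log2(FPKM + 0.1) over 17129 genes, gave a Benjamini-Hochberg adjusted p of at most 0.05 and a change of at least 2-fold. By this rule 6126 genes were higher and 588 lower in AAN. The median of all tested genes lay 0.75 above 0 on the log2 scale, so values relative to that median are given with each tested member. With the median of ratios as scaling this median was 0.06 and the calls were 3261 higher and 1801 lower, and with quantile normalization it was -0.13 with 2232 higher and 2157 lower.

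On FPKM as deposited, most of the 6 member ligand transcripts and Erbb4 were called higher in the cortex of AAN mice. The other 3 receptors rose by about as much as the typical gene. On these values no receptor pair differed at an adjusted p of at most 0.05 (exact permutation test), so Erbb4 was not shown to differ from them. Of the 9 members tested, 5 were called higher (Hbegf, Areg, Tgfa, Nrg1 and Erbb4), against 35.8% of all genes tested, and 0 were called lower, against 3.43%. With no limit on the fold, 8 members had an adjusted p of at most 0.05 in the higher direction, against 55.4% of all genes, and 0 in the lower, against 6% (limma). The AAN values lay wholly above the sham values in 6 of the 9 tested members, against 40.3% of all genes, and wholly below in 0, against 3.25%. Ereg had a mean under 0.1 FPKM and was not tested by limma. The median log2 fold change of the 9 was 1.14, against 0.75 for all genes. Under the median of ratios, which called 19% of all genes higher, and under quantile normalization, which called 13%, the count was 1 of 9, Areg, in both cases. Rescaled to the same FPKM total, 7 were called higher, against 51.6% of all genes. Without AAN mouse B614, which stood apart in Egf, the 5 called members were still called. In tissue, fewer cells of a type and less RNA per cell cannot be told apart, and the same holds for more cells and more RNA per cell.

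**Figure D1:**
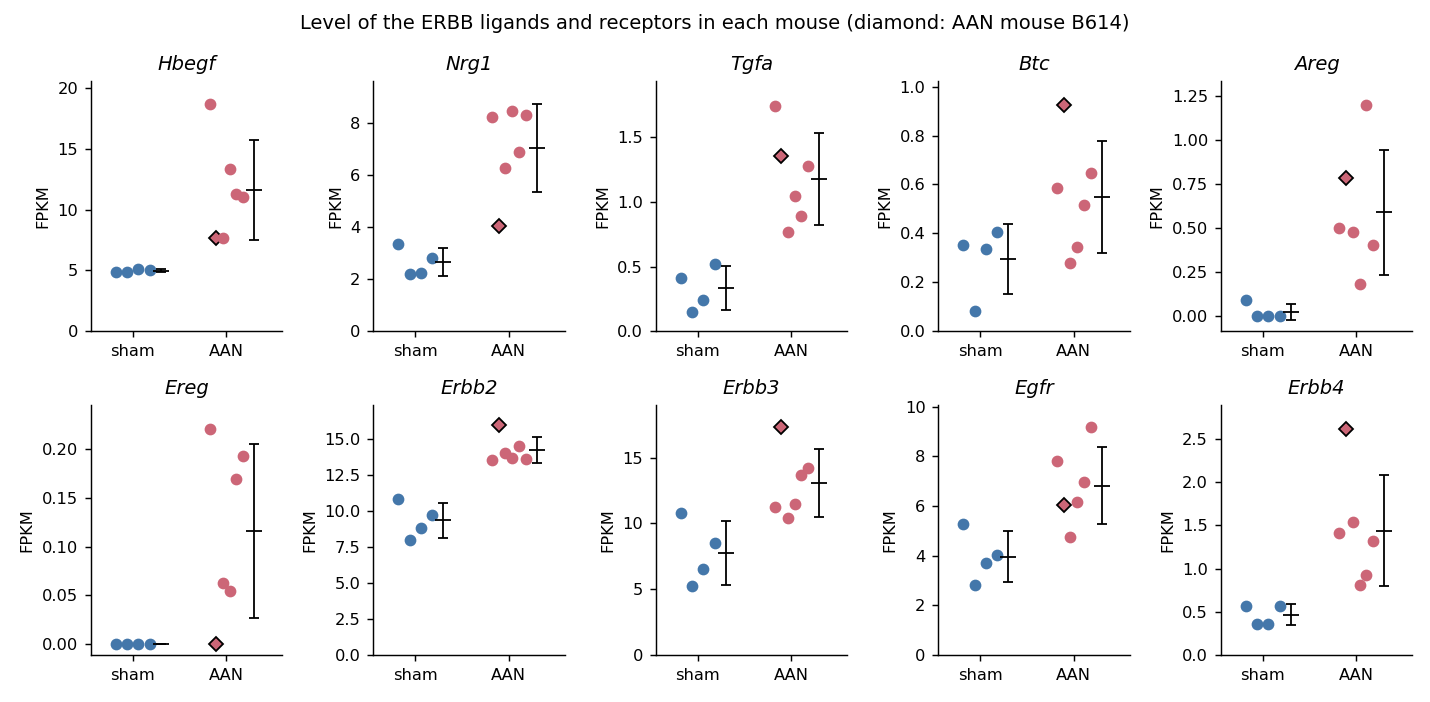
FPKM of the 6 ligand genes and 4 receptor genes in each mouse, on a linear axis for each gene; points are mice, the diamond is AAN mouse B614, and the bars give the mean and SD of the 4 sham and 6 AAN mice. Hbegf in the sham mice sits between 4.86 and 5.09 FPKM, below all AAN mice, while the groups of Btc, Ereg, Egfr and Erbb3 overlap.

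Hbegf (ENSMUSG00000024486), which encodes HB-EGF, had the highest mean level of the 6 member ligands. Its levels in the sham mice were 4.86, 4.87, 5.09 and 5.04 FPKM, and in AAN mice they ran from 7.62 through a median of 11.2 to 18.7 FPKM. The sham mice were nearly alike, and every AAN mouse lay above them. The mean was 4.96 ± 0.118 FPKM (SD, n = 4) in sham and 11.6 ± 4.12 (SD, n = 6) in AAN, a ratio of 2.34. The log2 fold change was 1.14 (SE 0.24, limma adjusted p = 0.0014), which is 0.39 above the median of all genes. Mouse A483 held the value of 18.7 FPKM, and without it the log2 fold change was 0.99 and fell short of 2-fold. With the median of ratios the log2 fold change was 0.39 (limma adjusted p = 0.177), and with quantile normalization 0.45 (limma adjusted p = 0.144).

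Nrg1 (ENSMUSG00000062991, chr8:31814551-32884029, minus strand) encodes neuregulin 1, the ligand of ERBB3 and ERBB4. Its levels were 3.37, 2.19, 2.25 and 2.83 FPKM in the sham mice, and ran from 4.06 through a median of 7.55 to 8.45 FPKM in AAN. The groups did not overlap, and the lowest AAN value belonged to mouse B614. Its log2 fold change was 1.35 (SE 0.23, limma adjusted p = 0.000317), 0.60 above the median of all genes. It was 0.61 with the median of ratios (limma adjusted p = 0.0251) and 0.53 with quantile normalization (limma adjusted p = 0.0528), both under 2-fold. The gene has 18 annotated transcripts, and its values sum over them.

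Tgfa (ENSMUSG00000029999, chr6:86195223-86275719, plus strand), which encodes TGF-alpha, was a lower ligand transcript. Its levels were 0.415, 0.147, 0.241 and 0.524 FPKM in the sham mice, and ran from 0.769 through a median of 1.16 to 1.75 FPKM in AAN. Again every AAN mouse lay above every sham mouse. On the log2 scale Tgfa was higher by 1.61 (SE 0.30, limma adjusted p = 0.000678), 0.87 above the median of all genes. With the median of ratios it was 0.99 (limma adjusted p = 0.00836), just under 2-fold, and with quantile normalization it was 0.35 (limma adjusted p = 0.306). With a pseudocount of 1 it was 0.70, under 2-fold.

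Areg (ENSMUSG00000029378), which encodes amphiregulin, was close to undetected in sham cortex and had fragments in every AAN mouse. In AAN mouse B639 these were only 3, at the floor used here. Its levels in the sham mice were 0.0940, 0, 0 and 0 FPKM, and in AAN they ran from 0.184 through a median of 0.489 to 1.20 FPKM. Because Areg has 1 annotated transcript, these values could be turned back into fragments. The sham libraries held 2, 0, 0 and 0 fragments and the AAN libraries 3 to 23, or 2 against 68 over the groups. Relative to depth this was a ratio of 24.1, with a 95% counting interval of 6.43 to 203. A value of 0 here allows up to 3 fragments, or 0.151 to 0.157 FPKM in those 3 mice, and intervals and limits cover counting error only. The fitted log2 fold change was 2.39 (SE 0.40, limma adjusted p = 0.00029), 1.65 above the median of all genes. This fold change depends on the pseudocount and was 0.61 with a pseudocount of 1. Areg was the only member also called under the median of ratios (log2 fold change 2.10, limma adjusted p = 0.00101) and under quantile normalization (1.23, limma adjusted p = 0.0301).

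Ereg (ENSMUSG00000029377), which encodes epiregulin and lies next to Areg in the genome, was listed at 0 FPKM in all 4 sham mice. In AAN mice it ran from 0 in B614 through a median of 0.116 to 0.221 FPKM. These are 15, 0, 4, 3, 11 and 13 fragments in AAN mice A483, B614, B630, B639, B642 and B666. The 46 fragments of the AAN libraries against 0 make the level at least 10.9-fold higher, with the floor taken as 3 fragments over the sham group. A two-sided exact permutation test with 210 assignments of the mice gave p = 0.0333 for the log2 values, and 0.0595 when any 1 sham mouse was left out. An exact permutation test in the mice whose tags begin with B gave p = 0.107. The deposited gene Gm19610 overlaps Ereg, and how shared fragments were counted is not given in the sources used here.

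Btc (ENSMUSG00000082361), which encodes betacellulin, was the ligand whose change was not called. Its levels were 0.354, 0.0831, 0.336 and 0.408 FPKM in the sham mice, and ran from 0.280 through a median of 0.551 to 0.923 FPKM in AAN. The groups overlapped, with 2 AAN mice (B630 and B639) inside the sham range. Its log2 fold change was 0.74 (SE 0.35, limma adjusted p = 0.0863), with a 95% confidence interval from -0.03 to 1.51. It stood at the median of all genes, 0.01 below it, and turned to -0.56 under quantile normalization.

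The 6 ligands were compared with each other as differences of log2(FPKM + 0.1) within each mouse. Because of the pseudocount, a scaling of the library moves such a difference where a ligand is low, and the pairs were tested on FPKM as deposited. With 21 ligand and receptor pairs tested, 0 of 15 ligand pairs had an adjusted p of at most 0.05 by the exact permutation test, and 3 had an unadjusted p of at most 0.05. Areg rose more than Btc by 1.65 on the log2 scale (SE 0.45, exact permutation p = 0.00476, the smallest the test can give, adjusted p = 0.1). Tgfa exceeded Btc in its difference by 0.87 (SE 0.23, exact permutation p = 0.00952, adjusted p = 0.1). The difference of Areg exceeded that of Ereg by 1.40 (SE 0.46, exact permutation p = 0.0381, adjusted p = 0.2). Ereg was at most 0.221 FPKM, where the pseudocount of 0.1 limits how far its log2 value can move. By fragments Ereg was at least 10.9-fold higher, within the Areg interval of 6.43 to 203, so this pair does not show which rose more. The 3 differences named do not pass the adjustment, and the pairs were picked by their p. At the smallest p of 0.00476, 1 pair alone cannot pass the adjustment over 21 pairs. The count of 0 thus does not show that the ligands moved alike. With a pseudocount of 1, 4 ligand pairs passed the adjustment, of those named only Tgfa against Btc (exact permutation adjusted p = 0.05). With 0.01, 4 passed, of those named only Areg against Btc (exact permutation adjusted p = 0.04).

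The receptor transcripts were led by Erbb2, followed by Erbb3 and Egfr, with Erbb4 far below. In sham mice Erbb2 held 39.4% to 48.6% of summed receptor FPKM, Erbb3 32.0% to 39.3%, Egfr 17.2% to 19.3% and Erbb4 1.85% to 2.48%. In AAN mice the shares were 35.5% to 45.6%, 33.0% to 41.3%, 14.4% to 24.0% and 2.52% to 6.24%. Between Erbb2 and Erbb3 the ranges of the shares lay close but did not overlap in sham mice and overlapped in AAN mice, and Egfr and Erbb4 stood apart from them and from each other. The order was the same in the means of both groups. Summed receptor FPKM was 16.4 to 27.5 in the sham group and 30.7 to 42.0 in the AAN group.

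Erbb4 (ENSMUSG00000062209, chr1:68032186-69108059, minus strand), a receptor of neuregulins and HB-EGF, was the only receptor called. Its levels were 0.569, 0.356, 0.357 and 0.566 FPKM in the sham mice, and ran from 0.808 through a median of 1.37 to 2.62 FPKM in AAN. The groups did not overlap, and the highest value was that of B614. On the log2 scale Erbb4 was higher by 1.38 (SE 0.30, limma adjusted p = 0.0018), 0.63 above the median of all genes. It was 0.72 with the median of ratios (limma adjusted p = 0.0568), 0.15 with quantile normalization (limma adjusted p = 0.725) and 0.70 with a pseudocount of 1.

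Erbb2 (ENSMUSG00000062312, chr11:98412470-98437716, plus strand), the coreceptor with no known ligand, had levels of 10.8, 7.98, 8.77 and 9.73 FPKM in the sham mice. In AAN it ran from 13.6 through a median of 13.8 to 16.0 FPKM, all above the sham mice and within a narrow range. The log2 fold change was 0.61 (SE 0.14, limma adjusted p = 0.00217), which passed the p limit but not the fold limit. It lay 0.14 below the median of all genes, and its sign turned with the median of ratios, to -0.15 (limma adjusted p = 0.301).

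Egfr (ENSMUSG00000020122, chr11:16752203-16918158, plus strand), the receptor of EGF, amphiregulin and TGF-alpha, had levels of 5.29, 2.82, 3.72 and 4.01 FPKM in the sham mice. In AAN it ran from 4.75 through a median of 6.58 to 9.20 FPKM, with B630 and the sham mouse B607 overlapping. Its log2 fold change of 0.77 (SE 0.22, limma adjusted p = 0.00859) stood 0.03 above the median of all genes and turned to -0.0042 under quantile normalization. Erbb3 (ENSMUSG00000018166, chr10:128567523-128589652, minus strand), the neuregulin receptor that signals with ERBB2, had levels of 10.8, 5.25, 6.50 and 8.49 FPKM in the sham mice. In AAN it ran from 10.4 through a median of 12.6 to 17.3 FPKM, and only B630 fell below the highest sham mouse. Its log2 fold change of 0.77 (SE 0.22, limma adjusted p = 0.00904) stood 0.02 above the median of all genes. Rescaled to the same FPKM total, Egfr and Erbb3 both reached 1.13 and were called higher, with the median of all genes then at 1.07.

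Of the 6 receptor pairs, 0 had an adjusted p of at most 0.05 by the exact permutation test and 1 had an unadjusted p of at most 0.05. This was Erbb2 against Erbb4, whose difference fell by 0.77 on the log2 scale in AAN (SE 0.22, exact permutation p = 0.0143, adjusted p = 0.1). It was the 1 receptor pair to pass the adjustment with a pseudocount of 0.01. The limit set by the smallest p of the test holds for the receptor pairs too. Overlapping genes with deposited values were Gm37735 for Erbb4, Mien1 for Erbb2, Egfros for Egfr and Gm26578 for Nrg1, so a share of the fragments at these genes is uncertain.

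**Figure D2:**
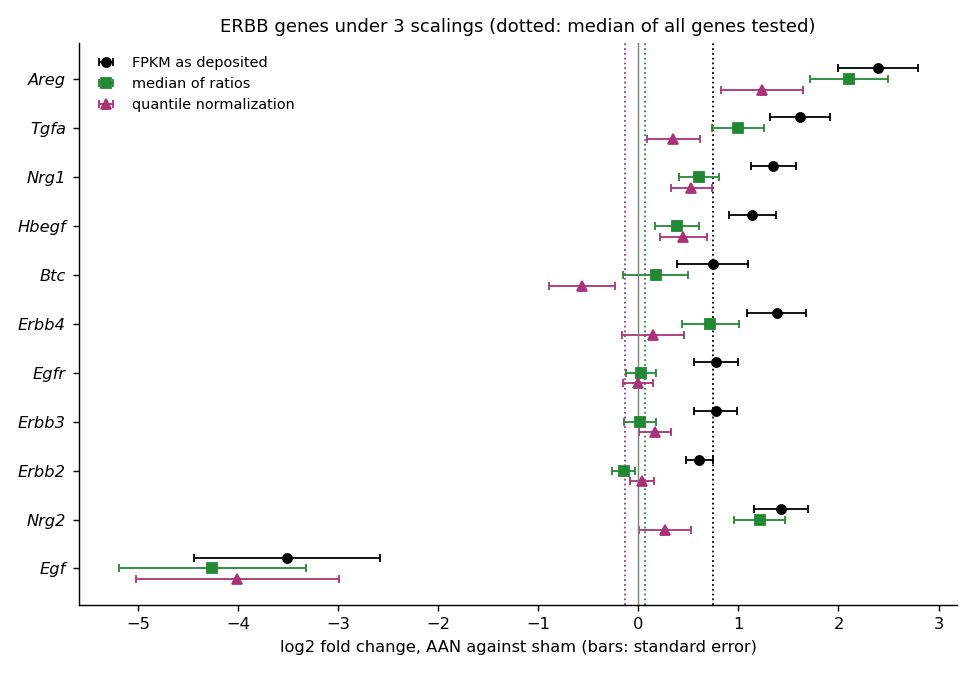
Log2 fold change of AAN against sham with its standard error for the 9 tested members and for Nrg2 and Egf, from FPKM as deposited, after the median of ratios and after quantile normalization; dotted lines give the median of all genes tested under each scaling, 0.75, 0.06 and -0.13. Egfr, Erbb2 and Erbb3 lie near the dotted line of each scaling, at most 0.3024 from it, Areg lies to the right of it and Egf far to the left under all 3.

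The other ERBB ligands were taken from a list of 5 (Egf, Epgn, Nrg2, Nrg3 and Nrg4), of which 4 had deposited values and 2 were tested. Egf (ENSMUSG00000028017, chr3:129677565-129755316, minus strand), the ligand that gives the family its name, was the most abundant ligand transcript in each sham mouse, with 86.9, 27.1, 27.6 and 69.3 FPKM. In 5 of the 6 AAN mice it was between 1.46 and 4.00 FPKM, and in B614 it was 71.9 FPKM. So the groups overlapped through 1 mouse. The log2 fold change was -3.51 (SE 0.93, limma adjusted p = 0.00643), and the exact permutation test over all mice gave p = 0.0381. Leaving out each mouse in turn gave -4.34 to -3.20. The value of -4.34 is that without B614, a mouse set apart by its Egf level, so no p is given for it. In the mice with B tags alone the log2 fold change was -3.12 (limma adjusted p = 0.0403). Under the other scalings the log2 fold change stayed between -4.26 and -3.15, with the call kept.

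Nrg2, which encodes neuregulin 2, was listed at 0 in 3 sham mice and at 0.0335 FPKM in B607, and ran from 0.0898 to 0.316 FPKM in AAN. Its fitted log2 fold change was 1.43 (SE 0.27, limma adjusted p = 0.00073), a value that depends on the pseudocount and that was 0.27 under quantile normalization (limma adjusted p = 0.427). Nrg4, which encodes neuregulin 4, went the other way in its means, at 0.105 ± 0.0556 FPKM (SD, n = 4) in sham and 0.0447 ± 0.0329 (SD, n = 6) in AAN, with an exact permutation p = 0.0667. Its AAN values ran from 0.0163 to 0.0996 FPKM, where 3 fragments of its longest transcript make 0.0870 to 0.107 FPKM. Epgn, which encodes epigen and lies beside Ereg, was at most 0.0840 FPKM in any mouse.

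The make-up of the ligand transcripts differed between the groups, as a description of summed FPKM. Egf held 77.5% to 90.3% of the sum of the 10 ligands in the sham group, and 6.15% to 20.2% in the AAN group without B614. Hbegf held 5.06% to 14.3% in sham mice and 38.8% to 57.9% in those 5 AAN mice. Nrg1 held 3.50% to 6.35% in sham and 25.5% to 34.7% in the same 5 mice. In B614, Egf held 82.7% and Hbegf 8.77%, within the sham ranges. The ratio of Egf to Hbegf was 5.42 to 17.9 in sham mice and 9.43 in B614, while the rest of the AAN group had 0.106 to 0.520. With Egf left out, the shares of Hbegf overlapped between the groups, holding 52.3% to 65.5% in sham and 48.6% to 61.6% in all 6 AAN mice. Their sum without Egf was 7.42 to 9.29 FPKM in sham and 15.02 to 30.3 FPKM in AAN.

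**Figure D3:**
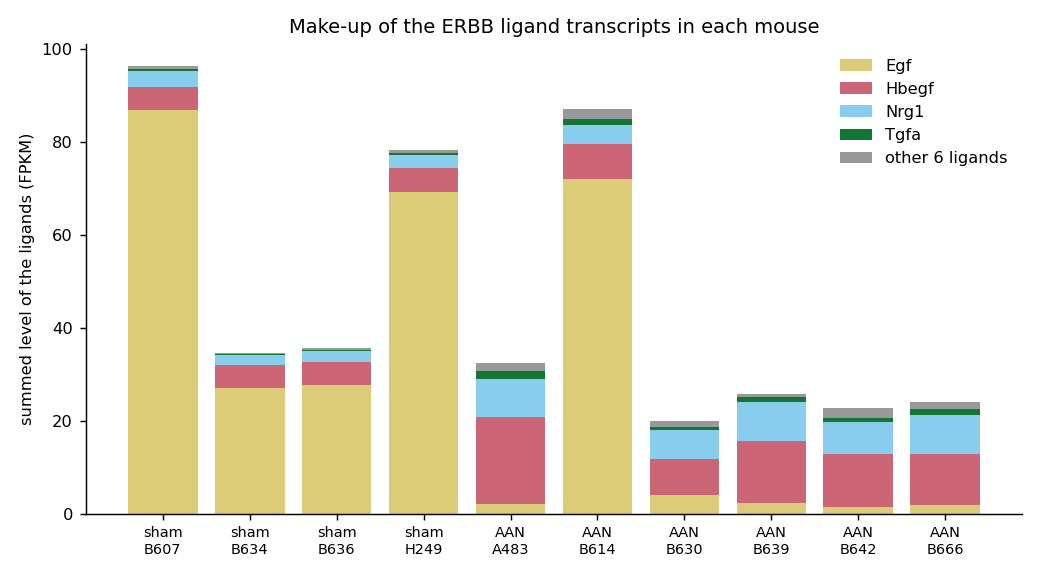
Summed FPKM of the 10 ERBB ligands with deposited values in each mouse, as stacked bars from 0; colors mark Egf, Hbegf, Nrg1, Tgfa and the other 6 ligands together. Egf fills most of the bar in the 4 sham mice and in AAN mouse B614, where it is 71.9 FPKM, and little of it in the other 5 AAN mice.

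Mouse B614 was also high in Umod, the uromodulin gene of the thick ascending limb, with 1719 FPKM. Umod was 1206, 424, 376 and 1523 FPKM in the sham mice and 147 to 397 FPKM in the other 5 AAN mice. The ratio of Egf to Umod was 0.0720, 0.0639, 0.0734 and 0.0455 in the sham mice, 0.0418 in B614, and 0.00489 to 0.0154 in the other 5. In sham B636 and AAN B666, Umod was 376 and 382 FPKM, and Egf was 27.6 and 1.87 FPKM. For Slc12a3, the sodium chloride cotransporter of the distal convoluted tubule, the ratio of Egf to it was 0.208 to 0.443 in sham and 0.155 in B614, against 0.0161 to 0.0393 elsewhere in the AAN group. These ratios and the pair of mice were chosen after the values were seen and are given as a description, and a cause was not tested.

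**Figure D4:**
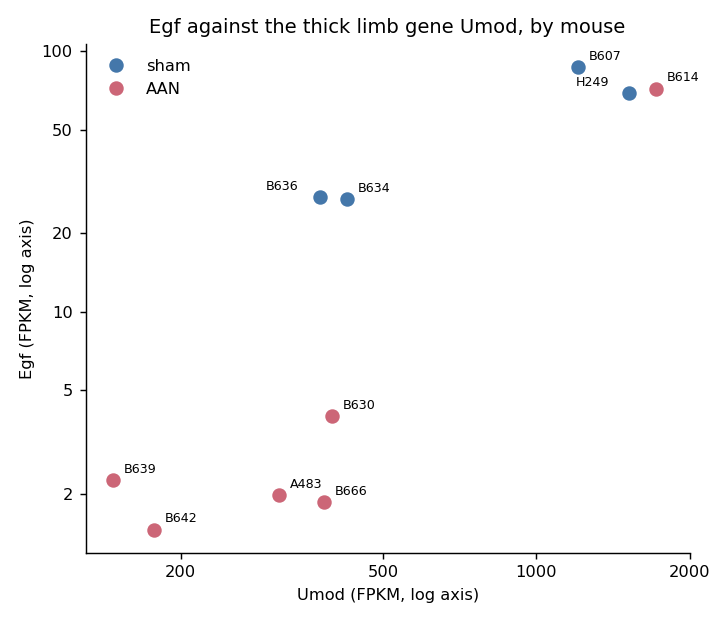
Egf against Umod in each mouse, both in FPKM on log axes, with sham and AAN mice in separate colors and each mouse labelled by its tag. AAN mouse B614 sits beside the sham mice H249 and B607, and the other 5 AAN mice lie below the sham mice at 1.46 to 4.00 FPKM of Egf.

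Genes that mark other cell types differed between the same groups. Summed levels of 6 macrophage genes were 34.3 to 53.1 FPKM in sham and 539 to 1846 FPKM in AAN. All 6 were called higher, against 35.8% of all genes. The 6 leukocyte and the 6 T cell genes were all called higher too, with T cell sums of 0.617 to 2.45 FPKM in sham and 59.2 to 158 FPKM in AAN. All 3 tested of 4 B cell genes were called higher, the sum going from 0.673 to 1.27 FPKM in sham to 3.79 to 9.48 FPKM in AAN, and the 1 listed mast cell or basophil gene was at most 0.0800 FPKM. The 7 fibroblast genes were all called higher (31.1 to 47.1 FPKM in sham, 129 to 316 in AAN), as were the 8 genes of injured tubule (189 to 299 against 1511 to 3831 FPKM). The lower ends in AAN of the macrophage, fibroblast, injured tubule, T cell and B cell sums are those of B614. In the same order, the other 5 mice began at 1100.1, 197, 2171, 71.6 and 3.94 FPKM.

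The cortex label was matched by abundant proximal tubule genes, at a sum of 3506 to 5561 FPKM in sham and 890 to 2740 FPKM in AAN, with 7 of 10 called lower. The thick limb list, which Egf accompanies in normal kidney, had 1 of 6 called lower, with sums of 486 to 1691 FPKM in sham and 213 to 1963 in AAN. For the distal and collecting duct list 1 of 8 was called lower, with sums of 362 to 710 against 247 to 965 FPKM. The upper ends in AAN are those of B614, and without it the AAN sums were 890 to 1246 FPKM for the proximal tubule list, 213 to 542 for the thick limb list and 247 to 426 for the distal and collecting duct list. Of all genes, 3.43% were called lower and 35.8% higher. Podocyte genes had 1 of 5 called, higher, and endothelial genes 0 of 6. In the endothelial list 2 genes were higher at an adjusted p of at most 0.05 (limma), against 55.4% of all genes. By the median of ratios, 3 thick limb, 3 distal and collecting duct and 1 endothelial gene were called lower, against 10.5% of all genes. Under this scaling no podocyte gene was called, and 4 endothelial genes were lower at that adjusted p. The share of all genes at that limit without a fold limit was not counted under this scaling. The 4 thus cannot be set against it. The part of these shifts in the levels of the ERBB genes was not tested.

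The list of ligand shedding held 11 genes, mainly of the proteases that release ERBB ligands. Of these 7 were called higher, against 35.8% of all genes, and 1 lower, against 3.43%, with a median log2 fold change of 1.57 against 0.75 for all genes. With the median of ratios 5 were called higher, against 19% of all genes, and with quantile normalization 3, against 13%. In both, 1 was called lower, against 10.5% and 12.6% of all genes. Adam17, which encodes the main protease for Areg, Tgfa and Hbegf precursors, had a log2 fold change of 1.57 (SE 0.18, limma adjusted p = 1.35e-05). It is named here outside the rule for named genes, after its value was seen. Adam10, a protease for EGF and betacellulin precursors, was 9.32, 0.577, 0.575 and 5.72 FPKM in the sham mice and 11.1 to 19.0 FPKM in AAN, a log2 fold change of 2.82 (SE 0.68, limma adjusted p = 0.00362). Adam19, a protease for neuregulin, was 0.0509 to 0.430 FPKM in sham and 4.17 to 7.46 FPKM in AAN, a log2 fold change of 4.08 (limma adjusted p = 9.57e-07).

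Timp3, an inhibitor of ADAM17, was the gene of this list called lower, at 274, 144, 167 and 184 FPKM in sham mice. It was 52.7 to 78.7 FPKM in 5 AAN mice and 150.4 FPKM in B614, for a log2 fold change of -1.26 (SE 0.28, limma adjusted p = 0.0021). Rescaled to the same FPKM total, its log2 fold change was -0.90 and was not called. Bace1, a protease for neuregulin, had a log2 fold change of 0.26 (limma adjusted p = 0.407), which turned to -0.47 with the median of ratios and -0.68 with quantile normalization.

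Among 26 adaptors and effectors of the receptors, 9 were called higher and 0 lower, against 35.8% and 3.43% of all genes, with a median of 0.71, near that of all genes. Under the median of ratios 2 were called higher, against 19% of all genes, and with quantile normalization 1, against 13%. Stat3, a transcription factor downstream of the receptors, was 1.40 to 4.10 FPKM in sham and 7.87 to 12.2 FPKM in AAN (log2 fold change 1.97, limma adjusted p = 4.93e-05). Nras, a small GTPase, had a log2 fold change of 1.92 (limma adjusted p = 0.00674) with overlapping groups. Map2k2 and Hras, a MAP kinase kinase and another GTPase, had log2 fold changes of -0.21 and -0.13 that missed the p limit, and both turned positive, to 0.15 and 0.23, when rescaled to the same FPKM total.

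Of 19 inhibitors of ERBB signaling, 10 were called higher and 0 lower, against 35.8% and 3.43% of all genes, with a median of 1.07. After the median of ratios 4 were called higher and 1 lower, against 19% and 10.5% of all genes, and with quantile normalization 3 and 1, against 13% and 12.6%. Dok2, an adaptor known from blood cells, was 0.0655 to 0.363 FPKM in sham and 4.41 to 11.5 FPKM in AAN (log2 fold change 4.74, limma adjusted p = 4.57e-07). Dusp5, a phosphatase of ERK, had a log2 fold change of 3.77 (limma adjusted p = 1.84e-05). Errfi1, which encodes the EGFR inhibitor MIG6, was 58.1, 41.3, 35.9 and 32.5 FPKM in sham mice, 14.4 to 28.1 FPKM in 5 AAN mice and 54.0 FPKM in B614. Its log2 fold change was -0.70 (limma adjusted p = 0.0693), and it was called lower with the median of ratios (-1.46) and with quantile normalization (-1.01). Lrig1, another receptor inhibitor, had a log2 fold change of 0.03 that turned to -0.68 and -1.07 under these scalings.

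Of 18 genes known to respond to growth factor signaling, 14 were called higher and 0 lower, against 35.8% and 3.43% of all genes. Their median log2 fold change was 2.28. Under the median of ratios 13 were called higher and 1 lower, against 19% and 10.5% of all genes, with a median of 1.67. With quantile normalization the counts were 12 and 0, against 13% and 12.6%, with a median of 1.26. Egr2, an early response transcription factor, was at most 0.0526 FPKM in sham and 1.37 to 4.77 FPKM in AAN (fitted log2 fold change 4.74, limma adjusted p = 4.37e-07). Fosl1, a subunit of AP-1, was 0.0669 FPKM in sham mouse B607 and 0 in the other 3, and 0.784 to 4.02 FPKM in AAN. Ccnd1, the cyclin D1 gene, had a log2 fold change of 0.69 (limma adjusted p = 0.00788), which turned to -0.07 with the median of ratios. Vegfa, a growth factor for vessels, was at -0.34 (limma adjusted p = 0.122), which was -1.10 with a call of lower under the median of ratios and 0.02 when rescaled to the same FPKM total. These genes respond to many signals besides ERBB.

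**Figure D5:**
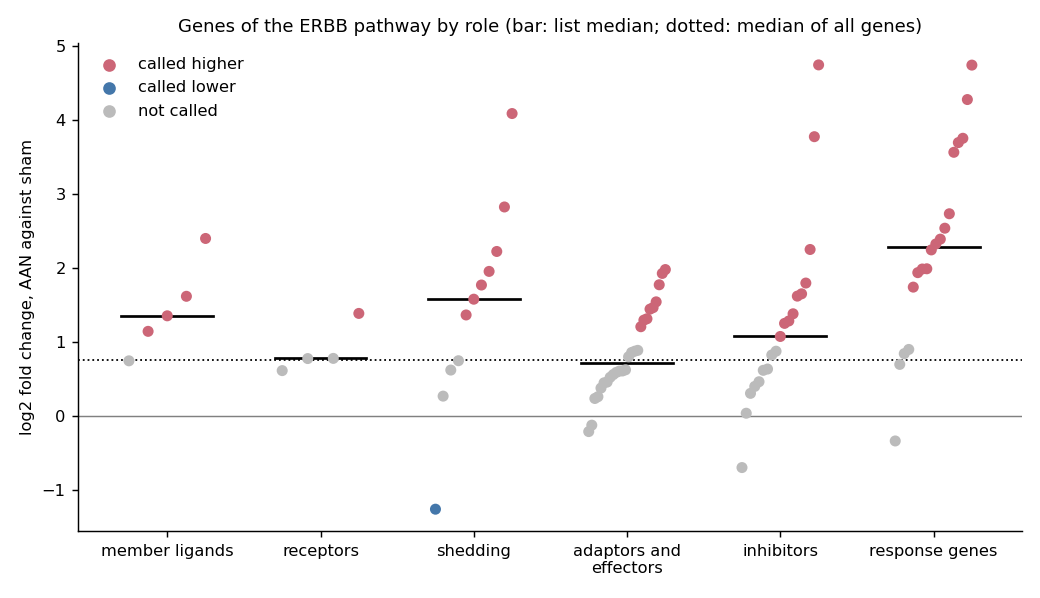
Log2 fold change of AAN against sham for each tested gene of the member ligands, the receptors and 4 lists of pathway genes; colors mark calls, bars give list medians, and the dotted line is the median of all genes, 0.75. The receptors and the adaptors and effectors center near the dotted line (medians 0.77 and 0.71), and the response genes center at 2.28.

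The genes most like the leading ligand and the leading receptor were found by the root mean square distance between log2(FPKM + 0.1) profiles, each centered on its mean, over the 10 mice and 12241 genes. For Hbegf these were Nsmce2 at a distance of 0.193, Dusp1 at 0.194 and Srsf3 at 0.199 on the log2 scale. Their means were 3.36, 3.24 and 7.99 FPKM in sham and 7.05, 7.46 and 16.8 FPKM in AAN. For Erbb2 they were Arih2 at 0.0823, Ipo11 at 0.0853 and Tfip11 at 0.0862. Their means were 2.25, 1.77 and 6.72 FPKM in sham and 3.34, 2.66 and 10.1 FPKM in AAN.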

How the data were processed

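Total RNA of renal cortex from 4 sham and 6 AAN mice was sequenced as paired-end libraries by the authors. HISAT2, StringTie and edgeR are named in the submitters' processing notes with the build mm10. The deposited values are FPKM per Ensembl gene and mouse, normalized by the authors for gene length and mapped fragments, and raw counts were not used here. Whether strand was used in counting, and how mice were batched, is not given in the sources used here. Symbols and positions came from GENCODE mouse release 21 (GRCm38), which held 21650 of the 21792 genes, and upstream sequences from RefSeq.

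Changes were tested with limma 3.58.1 in R 4.3.3 (two-sided, with trend and robust options) on log2(FPKM + 0.1), without scaling between mice, for 17129 genes whose mean reached 0.1 FPKM. Benjamini-Hochberg adjustment covered all of these, and limits were an adjusted p of 0.05 and a fold of 2. Since the values are FPKM, limma took the place of the authors' count test. Single values and pairs were tested with exact two-sided permutation tests over 210 assignments, whose smallest p is 0.00476. The scripts were tested on simulated data. Fragments were recovered where a gene has 1 transcript: 95.2% to 97.0% of low values (under 0.3 FPKM) per mouse were whole within 0.05. Replicates are separate mice, and log2 profiles correlated at 0.962 to 0.981 within sham and 0.940 to 0.980 within AAN. The remaining steps ran in Python 3.11.15 with pandas 2.3.3 and numpy 2.4.6, and the tests with scipy 1.17.1.

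The members and lists were chosen with earlier results of these data known. Named genes were the 10 members, the 5 other ligands, the 2 highest and 2 lowest genes of each pathway list by log2 fold change, and the 3 genes nearest in profile to the leading ligand and receptor. Alternatives tried were a pseudocount of 1 or 0.01, a filter of 1 FPKM or none, 3 other scalings, limma without trend or robust options, no fold limit, leaving out each mouse, and the mice with B tags alone.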

Additional observations from a re-analysis of the deposited data

Results flagged for a closer look

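In 60 groups of values per mouse (30 genes in the sham and the AAN mice), 1 value stood far from the rest of its group in 7. Chance gives about 3, a number that does not hold for groups with zeros in all other mice. Of the 7, 3 belong to AAN mouse B614. Its Egf was 71.9 FPKM, against 1.46 to 4.00 FPKM in the other AAN mice. Its Timp3 was 150.4 FPKM, against 52.7 to 78.7 FPKM, and its Errfi1 was 54.0 FPKM, against 14.4 to 28.1 FPKM. Both Timp3 and Errfi1 were thus nearer the sham levels in that mouse. The other 4 were low values beside zeros: Areg at 0.0940 FPKM, Nrg2 at 0.0335 FPKM and Fosl1 at 0.0669 FPKM in sham mouse B607, and Epgn at 0.0277 FPKM in sham mouse H249, each against 0 in the other 3 sham mice. In such a group any value above 0 is flagged, so these 4 do not show an excess over chance.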

How the results depend on the processing

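The number of genes called higher, 6126, was 2909 with a pseudocount of 1, 4025 with a filter of 1 FPKM, 3261 with the median of ratios, 2232 with quantile normalization, 8837 with the same FPKM total and 9482 with no fold limit. The number called lower, 588, was 1801 with the median of ratios, 2157 with quantile normalization, 332 with the same FPKM total and 1027 with no fold limit. Of the 9 members tested, 5 were called higher, against 35.8% of all genes. With a pseudocount of 1 the count was 2, against 2909 of 17129 genes. With a filter of 1 FPKM, which left out Areg, Tgfa and Btc, it was 3, against 4025 of 12271 genes. It was 1 with the median of ratios (19% of all genes) and 1 with quantile normalization (13%). With the same FPKM total it was 7 (51.6% of all genes), and with no fold limit 8 (55.4%). Leaving out each mouse gave 5488 to 6684 genes higher, 524 to 703 lower and 4 to 5 members higher. Ligand pairs past the adjusted limit numbered 0, and 4 with a pseudocount of 1 and 4 with 0.01, while receptor pairs numbered 0, and 1 with 0.01. Signs turned for Btc (-0.56) and Egfr (-0.0042) with quantile normalization and for Erbb2 (-0.15) with the median of ratios. The 4 pairs named kept their sign, and 11 of the other 17 changed sign in at least 1 alternative. The fold limit and the filter set which genes can be called, and for the other alternatives the cause was not tested. No paired analysis was possible because the tags of the mice are not shared between the groups. Depth limits Areg, Ereg, Epgn, Nrg2 and Nrg4, which rest on few fragments.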
